A study of Mus musculus with 7 samples.

Results

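The mitochondrial beta-oxidation spiral is described here by 10 enzymes, Acadvl, Acadl, Acadm, Acads, Hadha, Hadhb, Hadh, Acaa2, Eci1 and Decr1, taken by gene symbol from the array's platform annotation. All 10 were measured, among 16468 named genes and 22218 features in all. Liver RNA of 7 mice was hybridised to 2-colour arrays: 3 mice carrying a Zfp90 transgene (1 female, 2 males) and 4 wild-type littermates (1 female, 3 males). Each animal's RNA carried Cy5 and a shared pool carried Cy3, the pool being made from the livers of 4 wild-type mice, male and female, and dye swaps were part of the design. Zfp90 encodes a zinc finger protein. The promoter that drives the transgene, the strain, the age and the number of transgenic lines are not given in the sources used here. Each value below is a log2 ratio of an animal to the pool, so 0 is the level of the pool and 1 is a doubling.

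Beta-oxidation shortens fatty acids inside the mitochondrion and feeds acetyl-CoA into the citric acid cycle and, in liver, into ketone bodies. Each turn of the spiral begins with an acyl-CoA dehydrogenase, chosen by chain length, and goes on through hydration, a second dehydrogenation and thiolytic cleavage. For long chains these last steps are held in the trifunctional protein of the inner membrane, built from alpha subunits (Hadha) and beta subunits (Hadhb). Shorter chains use separate soluble enzymes, and unsaturated chains need the auxiliary enzymes Eci1 and Decr1.

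Hadha and Hadhb lie head to head on chromosome 5 and share 1 short intergenic stretch, shown here because these are the trifunctional genes whose ratios lay lower in transgenic liver. Their annotated starts are 272 bases apart, on opposite strands, and 0 other annotated genes reach into the interval. In the RefSeq promoter windows for build GRCm38.p6 (250 bases before to 50 after each start), those of Hadha and Hadhb overlap by 228 bases. Windows overlapping that of a divergent gene were found for 10.9% of the 27025 genes in that table. The stretch is chr5:30154981-30155252, written on the plus strand, so that Hadha is transcribed leftward from its left edge and Hadhb rightward from its right edge. The second sequence is the 250 bases before the start of Eci1, chr17:24426433-24426682, plus strand, shown because Eci1 was the gene whose ratios lay nearest to those of Hadha. Capitals mark the GC box GGGCGG.
Hadha-Hadhb interval: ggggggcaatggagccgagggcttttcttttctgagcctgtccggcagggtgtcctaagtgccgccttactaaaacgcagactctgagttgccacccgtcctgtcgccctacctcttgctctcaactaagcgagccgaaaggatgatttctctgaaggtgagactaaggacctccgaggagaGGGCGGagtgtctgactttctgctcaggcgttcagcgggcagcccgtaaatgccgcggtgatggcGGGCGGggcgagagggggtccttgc
Eci1 upstream: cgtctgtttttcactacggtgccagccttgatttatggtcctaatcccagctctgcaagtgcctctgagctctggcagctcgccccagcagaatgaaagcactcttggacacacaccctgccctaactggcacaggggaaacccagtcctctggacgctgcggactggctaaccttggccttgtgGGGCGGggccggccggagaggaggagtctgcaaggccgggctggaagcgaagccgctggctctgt

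The Hadha-Hadhb interval held the GC box 2 times and the Eci1 stretch held it 1 time, counting both strands. It also stood before members whose genotypes overlapped, 4 times in Acadl, 2 times in Hadh and 1 time in Acads. The GC box was present before the start in 32.7% of the 32851 windows of that table. The nuclear receptor half-site AGGTCA, found in 14% of the windows, was in neither sequence. It occurred 1 time each before Acadvl and Acadm, among the 8 members with a window in the table. Neither sequence held the CCAAT box (spelled as named, in 33.8% of windows), the TATA box TATAAA (12.4%), the ETS core CGGAAG (13.6%) or a direct repeat of the half-site with 1 base between (AGGTCANAGGTCA, in 0.0335% of windows and overlapping the half-site count). These are letters in a window and say nothing of binding.

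**Figure D1:**
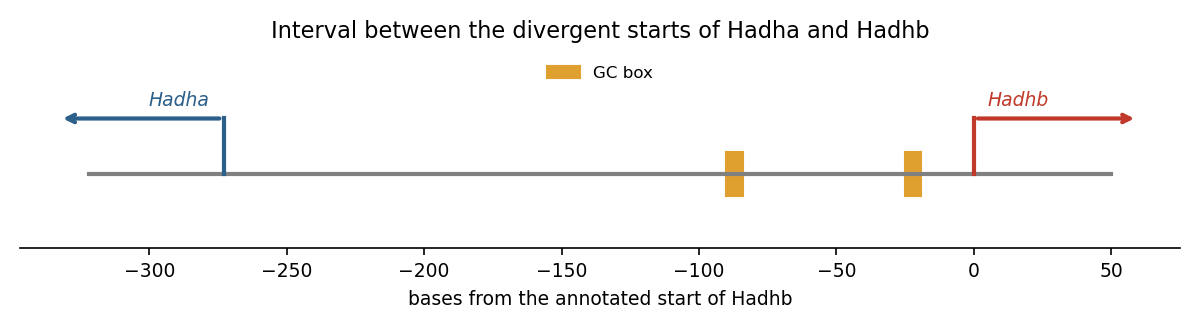
Map of the stretch between the annotated starts of Hadha (left arrow) and Hadhb (right arrow), with the x axis in bases from the start of Hadhb. The 2 GC boxes lie 90 to 85 and 25 to 20 bases before that start, nearer to Hadhb than to Hadha.

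Facts of all arrays that bear on these genes are few. Array medians lay between -0.01 and 0.03. The Y-linked gene Kdm5d read -2.54 and -3.22 in the females and 0.14 to 0.66 in the males, so a positive value was taken to mean more RNA in the animal than in the pool, on all 7 arrays. Of 21 pairs of arrays 3 correlated below -0.3 over all probes, the lowest at -0.497 between the transgenic female and wild-type male 4. If the direction were the opposite, every difference given here would carry the other sign. Zfp90 read 0.34 in the transgenic female and 0.58 and 0.45 in the transgenic males, against 0.37 in the female labelled wild type and -0.29 to -0.11 in the wild-type males. Zfp90 ratios thus separated the genotypes in males but not in the 2 females, and results are also given without that female or from males alone. In whole liver, fewer cells of a type and less RNA per cell cannot be told apart. Ratios carry no absolute level, so the presence of hepatocyte transcripts was not checked.

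In transgenic liver 4 of the 10 enzymes, Hadhb, Hadha, Eci1 and Decr1, lay below wild-type liver in every pairing of animals. Their fitted differences between the genotypes were 1.28-fold to 1.83-fold, while single pairings could lie much closer. Across all features 2.84% lay below in this way, and 0 of the 10 lay above. The acyl-CoA dehydrogenases and the soluble enzymes Hadh and Acaa2 overlapped between the genotypes. No enzyme passed the threshold: limma called 0 of the 10 at an adjusted p under 0.05, as it called 0 of all 22218 features (0%). The same 4 had an unadjusted p under 0.05, where 3.1% of all features were that low with a lower ratio. Of the 10 differences 9 were negative, with a median of -0.15, against 51.8% negative and a median of -0.01 over all features. Without the female labelled wild type, 7 were negative and the median was -0.08. That fit held no sex term and set 1 female and 2 males against 3 males. Its differences were -0.70 for Hadhb, -0.34 for Hadha, -0.32 for Eci1 and -0.35 for Decr1. In males alone 9 were negative, with a median of -0.13.

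**Figure D2:**
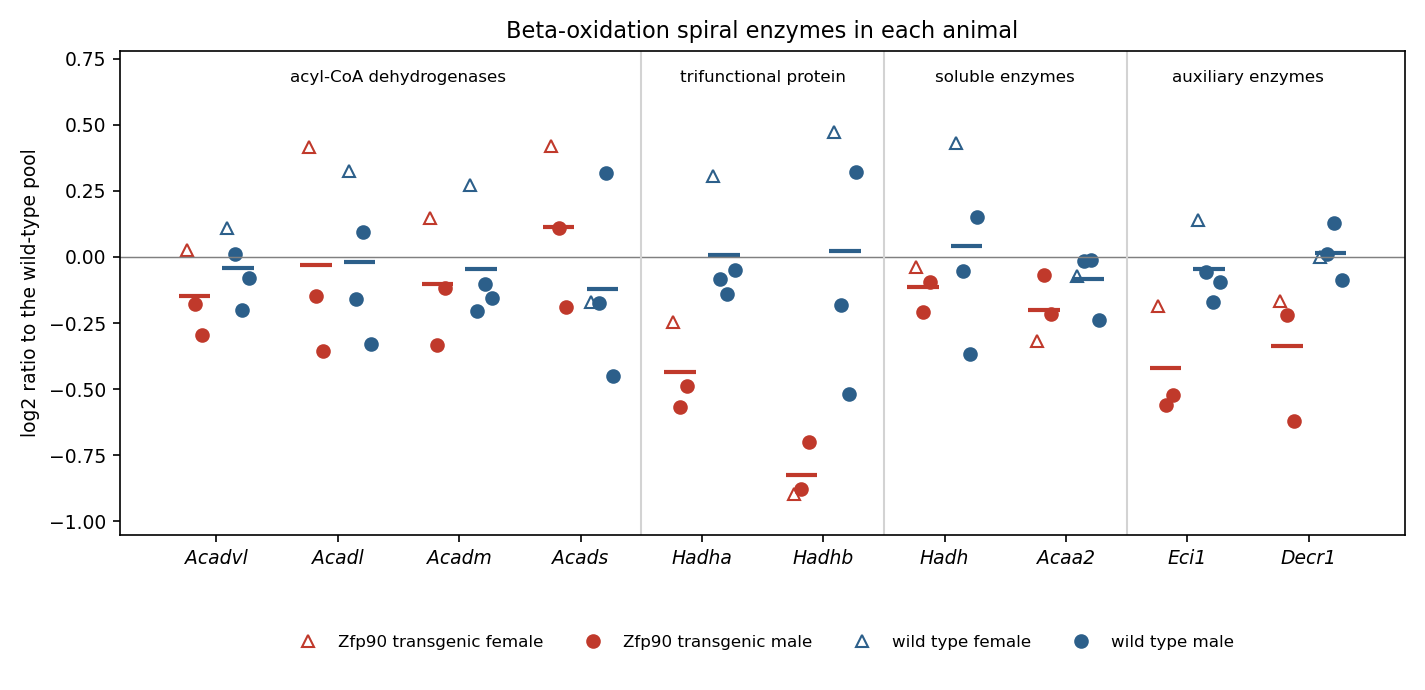
Log2 ratio to the wild-type pool (y axis) of each enzyme in each animal, with transgenic animals in red to the left of wild-type animals in blue, open triangles for females, filled circles for males and bars for group means. Red and blue separate in Hadha, Hadhb, Eci1 and Decr1, and in Hadhb the wild-type animals spread from -0.52 to 0.47.

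Of the trifunctional protein, the beta subunit Hadhb, which carries the thiolase, had the largest difference among the 10. It read -0.90 in the transgenic female and -0.88 and -0.70 in the transgenic males, against 0.47 in the female labelled wild type and -0.18, -0.52 and 0.32 in wild-type males 2, 3 and 4. The transgenic animals lay close together and below all wild-type animals, which themselves were widely spread. Transgenic animals averaged -0.82 ± 0.11 (SD, n = 3), against 0.02 ± 0.46 (SD, n = 4) in wild type, a 1.83-fold lower ratio with a difference of -0.87 ± 0.22 SE and a 95% interval of -1.39 to -0.35 (limma, adjusted p = 0.653). Hadhb was read by 2 probes, which differed by at most 0.07 on any array and gave -0.85 and -0.89 when fitted singly.

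Hadha, the alpha subunit with the hydratase and long-chain dehydrogenase activities, was read by 1 probe. Its ratios were -0.25 in the transgenic female and -0.57 and -0.49 in the transgenic males, against 0.31 in the female labelled wild type and -0.08, -0.14 and -0.05 in the wild-type males. The groups did not overlap, and the wild-type males were within 0.1 of each other. The difference was -0.47 ± 0.09 SE, 1.39-fold, with an interval of -0.67 to -0.27 (adjusted p = 0.475). Over the 7 arrays the root mean square difference between the subunits was 0.35. Among 16467 other named genes, Hadha came 136th in nearness to Hadhb and was the nearest of the other enzymes, while Hadhb came 7630th in nearness to Hadha. Ratios were not scaled for this measure, so the ranks depend on the size of the ratios as well as on their pattern. Over the 7 arrays Hadhb had a range of 1.37 and Hadha one of 0.87. The ranks therefore do not show whether the subunits rose and fell together.

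The auxiliary enzymes were the other pair that lay below. Eci1, the isomerase that shifts double bonds into the position the spiral can use, read -0.18 in the transgenic female and -0.56 and -0.52 in the transgenic males, against 0.14 in the female labelled wild type and -0.06, -0.17 and -0.09 in the wild-type males. The separation rested on a narrow margin, since the transgenic female lay only 0.0156 below wild-type male 3. Eci1 averaged -0.42 ± 0.21 in transgenic animals (SD, n = 3) and -0.04 ± 0.13 in wild-type animals (SD, n = 4), a difference of -0.40 ± 0.08 SE, 1.32-fold, with an interval of -0.60 to -0.20 (adjusted p = 0.549).

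Decr1, the dienoyl-CoA reductase for polyunsaturated chains, read -0.17 in the transgenic female and -0.22 and -0.62 in the transgenic males, against 0.00 in the female labelled wild type and 0.01, 0.13 and -0.09 in the wild-type males. Transgenic male 2 was far lower than the other transgenic animals. The difference was -0.36 ± 0.13 SE (adjusted p = 0.718), with an interval of -0.66 to -0.06, and was -0.21 without that male.

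The acyl-CoA dehydrogenases, which open each turn, did not separate by genotype. Acadvl, for very long chains, had a difference of -0.13 ± 0.09 SE, Acadl, for long chains, one of -0.06 ± 0.13, and Acadm, for medium chains, one of -0.09 ± 0.09. Acads, for short chains, was the only positive member, at 0.22 ± 0.20 SE. It read 0.42, 0.11 and -0.19 in the transgenic animals and -0.17, -0.17, 0.32 and -0.45 in the wild-type animals, with wide overlap. Their 95% intervals were -0.35 to 0.09 for Acadvl, -0.36 to 0.24 for Acadl, -0.30 to 0.13 for Acadm and -0.26 to 0.69 for Acads. Differences as large as that of Hadhb lie outside all 4 intervals. These differences moved when single animals were left out, and the fits without a female also held no sex term. That of Acads was 0.08 without the transgenic female and 0.12 without wild-type male 4, but 0.36 without transgenic male 2 and 0.38 without wild-type male 3. That of Acadvl was -0.06 without the female labelled wild type and -0.20 without the transgenic female. For Acadl the sign was positive without transgenic male 2, wild-type male 3 or the female labelled wild type, and for Acadm without the last of these. Otherwise Acadl ran to -0.23 and Acadm to -0.18, both without the transgenic female, and Acadm was -0.03 without transgenic male 1. In males alone Acadl was -0.12 and Acadm -0.07.

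Hadh, the soluble dehydrogenase for shorter chains, read -0.04, -0.21 and -0.09 in the transgenic animals, inside the wild-type range of -0.37 to 0.43, with a difference of -0.18 ± 0.15 SE. That difference was -0.02 without the female labelled wild type, in a fit with no sex term. It was -0.12 without wild-type male 4 and -0.29 without wild-type male 3. Acaa2, the soluble thiolase, varied least of the 10, with a range of 0.305 over all arrays, and differed by -0.11 ± 0.10 SE. The Acaa2 difference was -0.06 without the transgenic female, again with no sex term, -0.18 without transgenic male 1 and -0.17 without wild-type male 4.

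**Figure D3:**
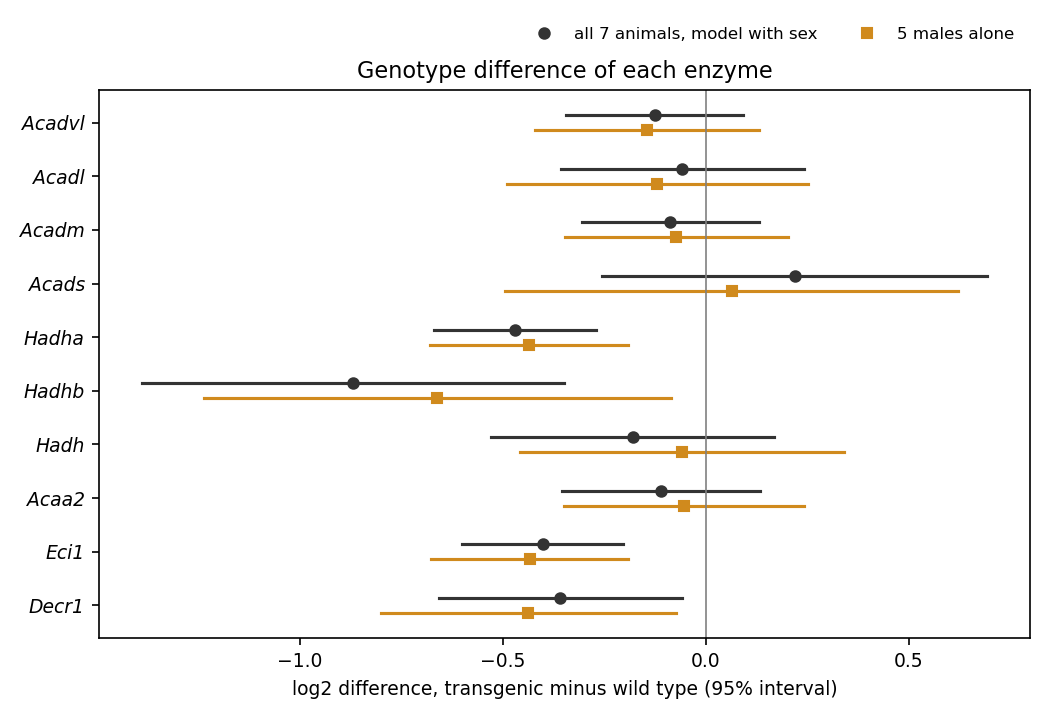
Log2 difference, transgenic minus wild type (x axis), with 95% intervals for each enzyme, from all 7 animals in the model with sex (circles) and from the 5 males alone (squares). In both fits the intervals of Hadha, Hadhb, Eci1 and Decr1 lie below 0 and those of the other 6 enzymes span it.

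Fitted in the males alone, where Zfp90 separated the genotypes, the same 4 enzymes had transgenic males below every wild-type male, a pattern that 11.4% of all features showed. Differences were -0.66 ± 0.24 SE for Hadhb, -0.44 ± 0.10 for Hadha, -0.43 ± 0.10 for Eci1 and -0.44 ± 0.15 for Decr1. None of the 10 passed (limma, lowest adjusted p = 0.376), against 7 features called (0.0315%). Between the 2 females, with 1 animal a genotype and no test, the transgenic female lay lower by -1.37 in Hadhb, -0.55 in Hadha, -0.33 in Eci1 and -0.17 in Decr1. In the model with an interaction of genotype and sex, 0 of the 10 were called, against 16 features (0.072%), and the lowest adjusted p among them was 0.707.

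The animals' sex gave another division among the same enzymes. Acadvl, Acadl and Acadm were higher in both females than in every male, which held for 6.04% of all features. In Acadl the females read 0.41 and 0.33, against -0.36 to 0.09 in the 5 males, with a difference of 0.56 ± 0.14 SE (1.47-fold, adjusted p = 0.243). In Acadm the females read 0.15 and 0.27, against -0.33 to -0.10 in the males, with a difference of 0.40 ± 0.10 SE (1.32-fold, adjusted p = 0.244). The margin in Acadvl was small, at 0.03 and 0.11 in the females against a male range of -0.29 to 0.01. It follows that each of these 3 was above every male in the transgenic female taken by herself, which is no separate check. None of the 10 passed for sex, where limma called 78 features (0.351%). Those at an unadjusted p under 0.05 and higher in females were Acadl, Acadm, Hadha and Eci1, 4 of 10, against 3.65% of all features. Of the 10 sex differences 9 were positive, against 52.3% of all features.

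**Figure D4:**
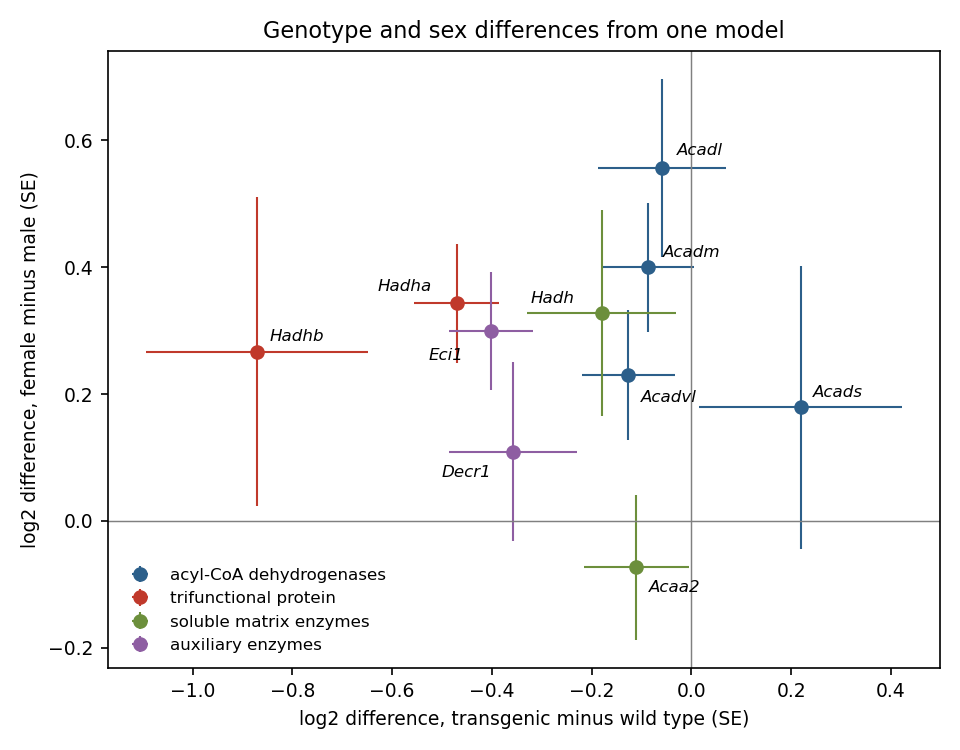
Difference of transgenic minus wild type (x axis) against female minus male (y axis) for the 10 enzymes on the log2 scale, with SE bars and colours for the enzyme's role. Hadhb, Hadha, Eci1 and Decr1 lie to the left at -0.87 to -0.36, and Acadl and Acadm lie highest at 0.56 and 0.40.

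Hadha and Eci1 had nearly the same profile. Over the 7 arrays their root mean square difference was 0.07, and each was the nearest of 16467 other named genes to the other. Outside the 10 enzymes, the named genes nearest to Hadha were Klb, the co-receptor for endocrine fibroblast growth factors (0.10), Hsdl2 (0.10) and Dpys, an enzyme of pyrimidine breakdown (0.11). Nearest to Hadhb were Eif4b, a translation initiation factor (0.17), Coq10b (0.21) and Bambi (0.23). Nearest to the mean of the 10 were Tspan31 (0.06), Atraid (0.06) and Adipor1, an adiponectin receptor (0.07). All profiles share the same pool and arrays, and likeness over 7 arrays is a description only.

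Genes around the spiral had list medians of -0.24 to 0.02, and limma called 0 of them. In fatty acid activation and the carnitine shuttle, 6 of 9 measured genes were negative, with a median of -0.16. Slc25a20, the carrier that brings acylcarnitine across the inner membrane, read -0.60, -0.40 and -0.31 in transgenic animals, against -0.08 to 0.15 in wild-type animals, with no overlap (difference -0.47 ± 0.11 SE). The carnitine importer Slc22a5 had a difference of -0.52 ± 0.12 SE, but its genotypes overlapped. Cpt2, which frees the acyl group on the matrix side, had -0.26 ± 0.11. Acsl5, which activates fatty acids, had a positive difference of 0.48 ± 0.15 SE. The shuttle thus held 3 genes with lower and 1 with higher ratios at an unadjusted p under 0.05. At that level 3.1% of all features were lower, and 848 of 22218 were higher.

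Among 11 other mitochondrial acyl-CoA enzymes, 6 were negative and 5 positive, with a median of -0.02. Eci2, a further isomerase, read -0.45, -0.35 and -0.50 in transgenic animals and -0.19 to 0.26 in wild-type animals (difference -0.43 ± 0.13 SE). The dehydrogenase Acad11 differed by -0.32 ± 0.12 SE. Mcee and Pcca, which take part in propionyl-CoA use, were higher in every transgenic animal than in every wild-type animal, at 0.33 ± 0.11 and 0.31 ± 0.12 SE. Of all 22218 features 705 lay above in this way. The Pcca margin was small, at 0.07 in transgenic male 1 against 0.02 in wild-type male 3. Of the 4 dehydrogenases for branched-chain and lysine breakdown 2 were negative, and Acad8 of the valine pathway was the largest in size at 0.42 ± 0.15 SE.

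The 3 genes of the electron transfer flavoprotein and its dehydrogenase, which take electrons from the acyl-CoA dehydrogenases, had a median of 0.02, with Etfb at 0.29 ± 0.14 SE and Etfdh at -0.21 ± 0.16. In ketogenesis 2 of 4 listed genes were measured, Bdh1 (-0.30 ± 0.13 SE) and Acat1 (-0.19 ± 0.17). Of 10 peroxisomal oxidation genes 6 were negative, with a median of -0.04. The carnitine octanoyltransferase Crot had the lowest difference there, at -0.66 ± 0.20 SE, beside Ech1 at -0.46 ± 0.16 and Scp2 at -0.36 ± 0.12.

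Of 13 regulators of fatty acid oxidation 6 were negative, with a median of 0.01. The coactivator Ppargc1a differed by 0.46 ± 0.14 SE, but its ratio of 1.09 in the transgenic female stood beside 0.18 and -0.04 in the transgenic males, and 0.30 in the female labelled wild type beside -0.38 to -0.07 in the wild-type males. The mitochondrial deacetylase Sirt3, which acts on acyl-CoA dehydrogenases, differed by -0.25 ± 0.10 SE and did not overlap. The Sirt3 margin was small, at -0.194 in transgenic male 2 against -0.175 in wild-type male 3. A list of 15 measured genes for general mitochondrial content had a median of -0.0004 with 8 negative, and its malate dehydrogenase Mdh2 was the member with the smallest p, at 0.26 ± 0.10 SE. No difference between these lists and the 10 enzymes was tested.

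**Figure D5:**
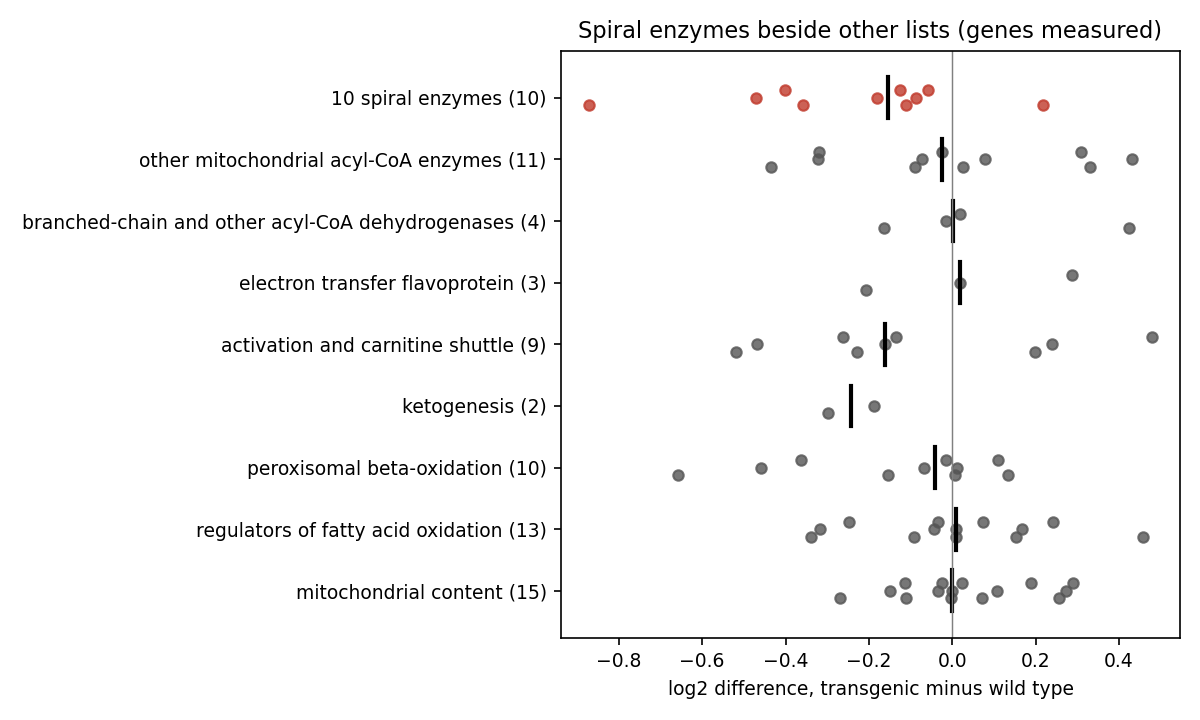
Log2 difference, transgenic minus wild type (x axis), of each measured gene of the 10 spiral enzymes (red, top) and of 8 other lists (grey), with black ticks at list medians. The medians are -0.15 for the spiral enzymes, -0.16 for activation and carnitine shuttle, and -0.0004 for mitochondrial content.

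Markers of other cell types were set beside these values. Of 9 measured macrophage and Kupffer cell markers 8 were positive in transgenic liver, with a list median of 0.39 in the transgenic female and 0.38 and 0.13 in the transgenic males, against 0.77 in the female labelled wild type and -0.53, -0.62 and -0.11 in the wild-type males. Of 10 hepatocyte markers 6 were negative and 4 positive, from -0.69 for Pck1 to 0.59 for Cps1, so they did not move together. Hepatocyte markers had medians of -0.24, -0.08 and -0.05 in the transgenic animals, against 0.01 in the female labelled wild type and 0.04, -0.09 and 0.05 in the wild-type males. The part of either in the ratios of the spiral enzymes was not tested. Medians of the difference were 0.01 for 7 endothelial, 0.10 for 6 stellate cell, 0.13 for 4 bile duct, 0.02 for 6 lymphocyte, -0.19 for 3 adipocyte and 0.22 for 4 red blood cell markers.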

How the data were processed

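The deposited values are log10 ratios per probe, 1 column for each of 7 animals and 23574 probes, with 0 missing. The log base was read from limits at exactly -2 and 2. Background correction, normalization and the combining of dye swaps are not given in the sources used here. Signal over background is unknown. Precision is limited by having 7 arrays.

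Log2 ratios are the deposited log10 ratios times 3.32. Platform annotation gave 17824 probes 1 gene symbol, 50 several and 5700 none, and probes of 1 gene were averaged (9 enzymes had 1 probe, Hadhb had 2). Differences were fitted with limma 3.58.1 (R 4.3.3), lmFit and eBayes, with genotype and sex over all 7 arrays. Benjamini-Hochberg adjustment ran over all 22218 features, with calls at 0.05. The interaction had a model of its own. The fit was run on simulated data as a check of the code alone. Simulated features varied independently, without variation shared within an array. That run therefore does not show how well the fit would find the differences given here. The labels name separate animals, so the spread is that between mice.

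The enzymes and gene lists were chosen with earlier results of these data known. Genes were named by rule: the 10 enzymes, Zfp90, up to 4 genes of each list with the smallest p, and the 3 named genes nearest to Hadha, to Hadhb and to the mean of the 10. Alternatives were centring, quantile normalization, dropping the sex term, males alone, robust moderation, named genes alone, single probes and leaving out each animal. Fits for genotype that left out a female also held no sex term. Promoter windows came from RefSeq, GRCm38.p6, matched by symbol.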

Additional observations from a re-analysis of the deposited data

How the results depend on the processing

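Hadha, Hadhb, Eci1 and Decr1 stayed negative, and 0 of the 10 enzymes passed for genotype or sex, under every alternative run, the lowest adjusted p being 0.181 without wild-type male 3 for genotype and 0.0768 for sex. Hadha ranged from -0.54 to -0.34, Hadhb from -1.03 to -0.66, Eci1 from -0.50 to -0.32 and Decr1 from -0.45 to -0.21. The count of 4 enzymes below all wild-type animals stayed at 4, which leaving out an animal can only keep or raise, while the share of all features below in this way was 3.65% to 8.75% in those comparisons. Differences that turned positive were those of Acadl (0.03 when transgenic male 2 was left out, 0.02 when wild-type male 3 was and 0.10 when the female labelled wild type was) and Acadm (0.0518 without that female), and the causes were not tested. Genotype fits without a female held no sex term, so there the animal left out and sex cannot be told apart. In males alone Acadl was -0.12 and Acadm -0.07. Over the fits that each left out 1 animal, Acadl ran from -0.23 to 0.10 and Acadm from -0.18 to 0.0518. Features called for genotype numbered 7 in males alone and 0 to 4 with an animal left out (4 without the female labelled wild type). Features called for sex numbered 49 with quantile normalization and 36 to 254 with an animal left out, an alternative added after the data were seen: 36 without the female labelled wild type and 254 without the transgenic female. The interaction gave 6 with quantile normalization, also added later. No paired analysis was possible because the genotypes share fewer than 2 replicate numbers in the labels. Filters on dim probes and background settings were not run, since the table holds ratios alone.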

Other observations

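Echs1, the short-chain enoyl-CoA hydratase that performs the hydration step for shorter chains, is not among the 10 enzymes and was chosen after its values were seen. It read -0.47 in the transgenic female and -0.33 and -0.15 in the transgenic males, against 0.49 in the female labelled wild type and -0.06, -0.86 and 0.35 in wild-type males 2, 3 and 4. Its difference was -0.32 ± 0.30 SE over all animals and -0.05 in the males alone. The wild-type males stood in the same order in Echs1, Hadhb and Hadh, with male 3 lowest and male 4 highest. Hadha had that order too, but Acadvl, Acadl, Acadm, Acads, Acaa2, Eci1 and Decr1 did not. Outside these enzymes that order also held in Eif4b, Coq10b and Bambi. Those genes were picked for nearness to Hadhb over the same arrays, so their order is no separate check. The share of all features with the order of male 3 lowest and male 4 highest was not counted. That order is therefore not shown to be particular to these enzymes. The wild-type males ran from -0.52 to 0.32 in Hadhb and from -0.37 to 0.15 in Hadh.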
